A study of Mus musculus with 16 samples.

Results

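The values of 9 feedback and target genes of the transforming growth factor beta (TGF-beta) and bone morphogenetic protein (BMP) pathways are described in mouse macrophages that were given dying cells. They were Smad3, Smad6, Smad7, Pmepa1, Skil, Ski, Id1, Id2 and Id3, 9 of the 55416 gene IDs in the deposited count table and 9 of the 14168 genes that passed the filter on low counts. The genes were chosen from a list of pathway genes with their values in these libraries already known, so their fold changes, and whether each passed the threshold used for all genes, describe these data and support nothing further. Macrophages of the mouse Hoxb8 line, cells of bone marrow origin whose precursors are kept dividing by the transcription factor Hoxb8 until it is withdrawn, were measured alone or after 45, 90 or 180 min with apoptotic cells of the Jurkat line, which derives from a human T cell leukaemia. Each of the 4 groups held 4 libraries, numbered below in the order of the table as names only, and the RNA was total RNA without ribosomal RNA. The labels name no genotype, no other agent and no time at which the macrophages kept alone were collected, so time in culture and exposure to dying cells cannot be told apart. They also do not say that the libraries came from separate cultures, and the spread between libraries may be technical. All macrophages came from 1 line, and the labels name no sort for cells that took up dying cells (efferocytosis), so each value is a mean over cells that did and did not engulf. In such bulk RNA, fewer cells with a transcript and less transcript per cell cannot be told apart.

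TGF-beta and activin bind receptor kinases that phosphorylate SMAD2 and SMAD3, while BMPs act through SMAD1, SMAD5 and SMAD9, and both kinds of SMAD enter the nucleus with SMAD4. Many genes that the SMADs switch on damp the same signal: SMAD6 and SMAD7 block the receptors, PMEPA1 holds SMAD2 and SMAD3 away from them, and SKI and SKIL (also called SnoN) repress SMAD target genes. The ID proteins are classic BMP targets that bind E proteins and keep them off DNA. Uptake of apoptotic cells is known to lead macrophages to release TGF-beta, and several of these genes also respond to other signals.

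Library totals ran from 18.7 M to 27.7 M counts in macrophages alone, 24.4 M to 41.7 M at 45 min, 13.6 M to 17.4 M at 90 min, and 10.7 M to 23.4 M at 180 min. All 7 macrophage markers (Adgre1, Csf1r, Cd68, Fcgr1, Itgam, Lyz2 and Mertk) passed the filter, and their summed level in CPM (counts scaled to the library total) was 10259 to 10566 alone, 11137 to 12138 at 45 min, 10024 to 10365 at 90 min and 9265 to 10534 at 180 min, so the 45 min libraries lay above all others. The part of this in the results was not tested. Of 11 T cell markers 2 passed, the sum of all 11 was 11.9 to 14.7 CPM alone, 9.88 to 10.8 at 45 min, 9.78 to 11.1 at 90 min and 10.4 to 14.04 at 180 min, and nearly all of it was Cd28 (12.4 CPM alone). Cd3e, Cd3g, Cd7 and Cd2 had 0 counts in all 16 libraries. These markers are mouse genes and the Jurkat cells are human, so their levels cannot show how much Jurkat RNA was present. Human reads that resemble mouse genes could be among the counts of the groups given Jurkat cells, which was not tested. The sum of 6 progenitor markers, nearly all of it Hoxb8, was 24.5 to 32.4 CPM alone and 18.7 to 24.7 CPM at 180 min, and its part in the results was not tested. Summed markers of neutrophils, stroma and dendritic cells stayed at or under 4.36, 4.76 and 0.348 CPM in every library, and those of endothelium at or under 18.3 CPM.

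At 180 min, 8 of the 9 genes lay above macrophages alone in every library, as did 13.8% of all tested genes. Id3 was the exception. Smad6 and Smad7, which encode the inhibitory SMADs, were 4.90-fold and 3.49-fold higher, Pmepa1 was 3.08-fold higher, and Id2, Id1 and Smad3 were 2.20-fold, 2.13-fold and 1.91-fold higher. The corepressor genes moved less, Ski by 1.47-fold and Skil by 1.14-fold. Id3 was highest at 45 and 90 min, and at 180 min all of its libraries lay within the range of macrophages alone. Per kb of exon, the mean level in macrophages alone ran from 61.8 ± 1.58 CPM for Id2, 48.3 ± 1.75 for Skil and 38.5 ± 0.541 for Ski down to 8.48 ± 0.505 for Smad3, 3.25 ± 0.461 for Id1, 1.95 ± 0.105 for Smad7, 1.52 ± 0.158 for Pmepa1, 1.38 ± 0.367 for Id3 and 0.588 ± 0.190 for Smad6 (SD, n = 4 each). Pmepa1 and Id3 were neighbours in that order that did not differ beyond their spread. At 180 min Id2 was still the most abundant of the 9 at 136 ± 6.17 CPM per kb, and Ski at 56.6 ± 1.29 had drawn level with Skil at 55.1 ± 1.49, a gap within their spread. Smad3 followed at 16.2 ± 0.152, then Id1 at 6.91 ± 1.53 and Smad7 at 6.79 ± 0.557, which did not differ beyond their spread, then Pmepa1 at 4.65 ± 0.376, Smad6 at 2.91 ± 0.453 and Id3 at 1.64 ± 0.0611 (SD, n = 4 each).

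**Figure D1:**
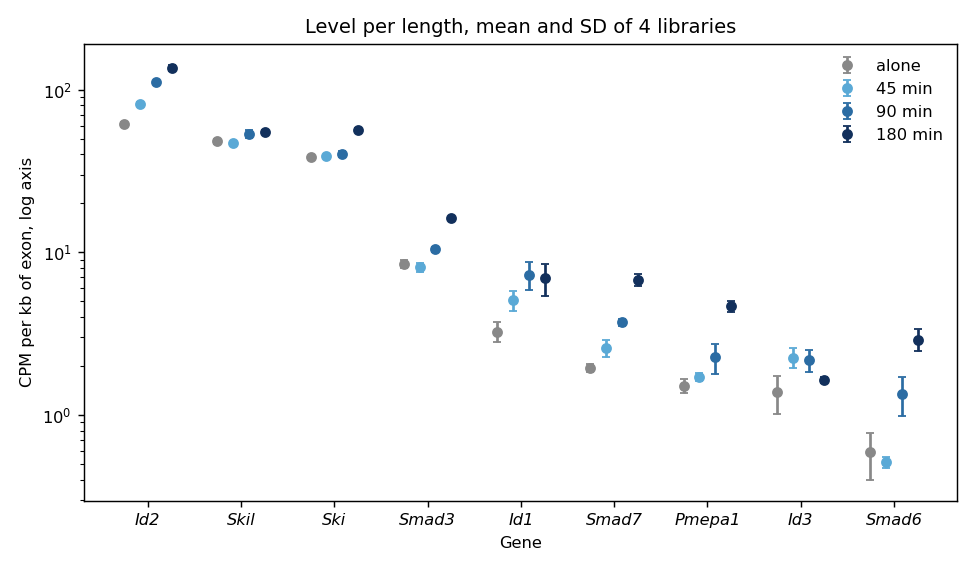
Mean level of each gene in CPM per kb of exon on a log axis, with SD over 4 libraries, for macrophages alone and after 45, 90 and 180 min with apoptotic cells. Id2, Skil and Ski lie above 38 CPM per kb in every group, and Smad6 climbs from the lowest place of the 9 in macrophages alone (0.588) to above Id3 at 180 min (2.91 against 1.64).

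Smad6 and Smad3 lie next to each other on chromosome 9, with 0 protein-coding and 5 other genes of the RefSeq table between them. Start site sequences of 5 of the 9 genes were searched for motifs (RefSeq, GRCm38.p6). Those of 4 are printed from 250 bases before to 10 bases after the start. They are Smad6 for the largest fold change, Smad3 as its neighbour and Id2 as the most abundant gene per kb of exon. Id3 is printed as well, since its mean levels were highest at 45 and 90 min. The sequences read 5′ to 3′ along the gene, and capitals mark letters that match a searched motif.
Smad6 (chr9:64022050-64022309, minus strand): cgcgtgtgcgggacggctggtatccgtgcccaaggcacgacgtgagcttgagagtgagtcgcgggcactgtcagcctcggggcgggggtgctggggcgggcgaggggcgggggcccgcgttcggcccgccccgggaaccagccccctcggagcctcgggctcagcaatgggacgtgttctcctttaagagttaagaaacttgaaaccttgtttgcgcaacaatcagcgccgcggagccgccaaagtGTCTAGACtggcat
Smad3 (chr9:63757985-63758244, minus strand): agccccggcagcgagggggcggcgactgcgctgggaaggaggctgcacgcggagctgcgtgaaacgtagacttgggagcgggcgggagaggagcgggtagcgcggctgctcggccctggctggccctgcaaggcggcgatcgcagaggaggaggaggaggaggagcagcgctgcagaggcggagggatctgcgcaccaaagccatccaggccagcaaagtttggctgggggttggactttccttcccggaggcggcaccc
Id2 (chr12:25096083-25096342, minus strand): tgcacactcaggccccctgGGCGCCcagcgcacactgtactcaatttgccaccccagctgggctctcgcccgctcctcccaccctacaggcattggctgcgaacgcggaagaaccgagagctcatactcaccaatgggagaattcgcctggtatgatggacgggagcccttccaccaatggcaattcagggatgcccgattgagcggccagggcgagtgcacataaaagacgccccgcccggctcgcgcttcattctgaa
Id3 (chr4:136143572-136143831, plus strand): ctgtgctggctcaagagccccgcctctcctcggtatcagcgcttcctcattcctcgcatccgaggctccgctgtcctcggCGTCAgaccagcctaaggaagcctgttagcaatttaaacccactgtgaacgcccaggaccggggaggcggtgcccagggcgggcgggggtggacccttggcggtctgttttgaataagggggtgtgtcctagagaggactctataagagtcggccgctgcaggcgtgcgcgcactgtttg
The motifs searched on both strands were GTCTAGAC (the palindromic SMAD element), CAGACA (the CAGA box, which holds AGAC as the palindrome does), GGCGCC (a GC-rich SMAD element), TGACGTCA (the cyclic AMP response element) and the TGACG within it, and GCGTGGGCG and GCGGGGGCG (EGR elements). Smad6 held the palindromic SMAD element across its start, from base -4 to base +4, a match found in 0.177% of the 32851 windows of the same 260 bases in the table. Id2 held GGCGCC from base -231 to -226, as did Ski from -220 to -215, and 9.96% of windows hold it. The GC content of these windows was 61.5% for Id2 and 86.9% for Ski, where the median of all windows was 52.3%. The share was not matched for GC. Id3 held TGACG on the minus strand from base -170 to -166, as 18.8% of windows do on either strand, and the capitals show its reverse complement. Smad3 held none of the 7. These matches describe letters only, and binding was not measured.

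Smad6 (ENSMUSG00000036867), which encodes an inhibitory SMAD that acts mainly on BMP receptors, was scarce in macrophages alone, with 1.51, 1.57, 2.79 and 1.66 CPM in the 4 libraries. It stood at 1.67, 1.57, 1.53 and 1.82 CPM at 45 min, at 5.26, 5.30, 3.75 and 2.96 CPM at 90 min, and at 7.97, 10.7, 8.16 and 10.5 CPM at 180 min. Every library at 90 min was above every library alone or at 45 min, and every library at 180 min was above those at 90 min, while alone and 45 min overlapped. The log2 fold change against macrophages alone was -0.20 (SE 0.24) at 45 min, 1.18 (SE 0.23) at 90 min and 2.29 (SE 0.22) at 180 min. These values rest on 31 to 249 counts per library, and without library 3 of macrophages alone, which held 2.79 CPM, the value at 45 min was 0.08.

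Smad7 (ENSMUSG00000025880), which encodes the inhibitory SMAD that brings ubiquitin ligases to the TGF-beta receptor, moved at every time. It measured 8.91, 8.15, 9.21 and 9.07 CPM alone, 11.7, 9.73, 12.8 and 12.6 CPM at 45 min, 16.2, 16.8, 16.3 and 17.9 CPM at 90 min, and 32.1, 27.0, 32.5 and 31.3 CPM at 180 min. No group overlapped the next, so the order of the 4 groups was complete in the libraries. Its log2 fold changes against macrophages alone were 0.41 (SE 0.11), 0.93 (SE 0.11) and 1.80 (SE 0.10). The value at 45 min was 0.30 and no longer passed the threshold of 0.05 on the adjusted p when a smooth dependence of the counts on exon length and GC was taken out of each library.

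Pmepa1 (ENSMUSG00000038400), whose membrane protein sequesters SMAD2 and SMAD3 and recruits ubiquitin ligases, moved mainly between 90 and 180 min. It measured 6.42, 7.72, 8.27 and 7.40 CPM alone and 9.001, 8.34, 8.58 and 7.89 CPM at 45 min, and these groups overlapped. It measured 8.84, 14.3, 10.1 and 11.2 CPM at 90 min, above all libraries alone but overlapping those at 45 min, and 23.9, 20.9, 21.8 and 24.9 CPM at 180 min, above all others. The log2 fold changes were 0.18 (SE 0.13), 0.59 (SE 0.13) and 1.62 (SE 0.12) against macrophages alone and 1.04 (SE 0.12) between 90 and 180 min. The step from 45 to 90 min, 0.41 (SE 0.13), depended on single libraries: without library 2 at 90 min it was 0.24 and did not pass, and without library 4 at 45 min it did not pass either.

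Smad3 (ENSMUSG00000032402), the receptor-activated SMAD of TGF-beta and activin and the only signal carrier among the 9, overlapped macrophages alone at 45 min and then rose. It measured 47.7, 44.7, 50.7 and 45.0 CPM alone and 47.5, 44.2, 46.4 and 41.1 CPM at 45 min, in overlapping groups. It measured 58.7, 59.7, 55.0 and 58.4 CPM at 90 min and 90.3, 91.0, 89.5 and 89.2 CPM at 180 min, with no overlap between these or with the earlier groups. The log2 fold changes were -0.07 (SE 0.061), 0.30 (SE 0.063) and 0.94 (SE 0.061) against macrophages alone. The 180 min libraries were the tightest of its groups, with a coefficient of variation of 0.937%.

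The corepressor genes were abundant and differed less at 180 min than the inhibitory SMAD genes. Ski (ENSMUSG00000029050) measured 217, 210, 213 and 215 CPM alone, 219, 213, 217 and 221 CPM at 45 min, 218, 236, 224 and 218 CPM at 90 min, and 309, 314, 325 and 311 CPM at 180 min. Only the 180 min libraries stood well clear of the others, and the log2 fold change was 0.02 (SE 0.043) at 45 min, 0.07 (SE 0.043) at 90 min and 0.56 (SE 0.043) at 180 min. The 90 min libraries lay just above all those alone without passing the threshold. Skil (ENSMUSG00000027660) measured 444, 482, 477 and 471 CPM alone, 463, 458, 447 and 442 CPM at 45 min, 544, 480, 527 and 520 CPM at 90 min, and 527, 528, 527 and 556 CPM at 180 min. Groups alone and at 45 min overlapped, as did alone and 90 min, and 90 and 180 min. The log2 fold changes were -0.05 (SE 0.041), 0.14 (SE 0.042) and 0.19 (SE 0.042). The Skil difference at 90 min did not pass without library 1 alone or without library 1 at 90 min, and at 45 min it was 0.139, in the other direction and past the threshold, with the length and GC dependence taken out.

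**Figure D2:**
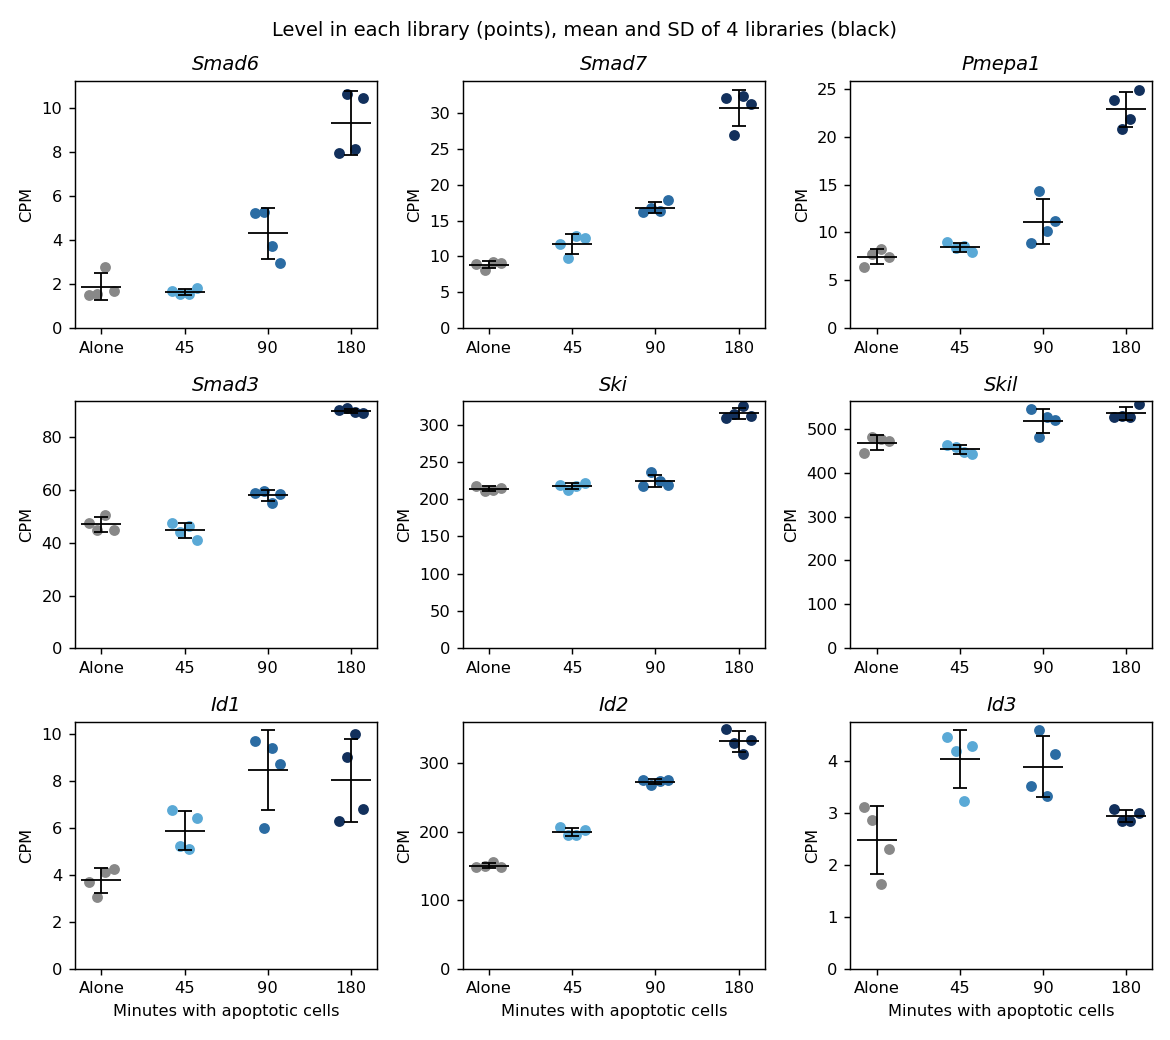
CPM of each of the 9 genes in each library (points), with mean and SD of 4 libraries (black), against minutes with apoptotic cells, on linear axes from 0. Smad6, Smad7, Pmepa1, Smad3, Ski and Id2 at 180 min lie above every library of the other groups, whereas Id3 is highest at 45 and 90 min.

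The 3 ID genes encode proteins without a DNA-binding domain that pair with E proteins. Their mean level was highest at 180 min for Id2, at 90 min for Id1 and at 45 min for Id3. Their courses were not tested against each other. Id2 (ENSMUSG00000020644) measured 148, 150, 156 and 148 CPM alone, 207, 195, 195 and 203 CPM at 45 min, 275, 268, 274 and 276 CPM at 90 min, and 350, 330, 313 and 334 CPM at 180 min. None of its 4 groups overlapped another, and its log2 fold changes were 0.41 (SE 0.044), 0.86 (SE 0.045) and 1.14 (SE 0.045). Id2 was thus, with Smad7, a gene for which each time stood above the one before in every library.

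Id1 (ENSMUSG00000042745) measured 3.68, 3.06, 4.12 and 4.24 CPM alone and 6.78, 5.21, 5.11 and 6.42 CPM at 45 min, with no overlap. It measured 9.71, 5.99, 9.41 and 8.71 CPM at 90 min and 6.27, 9.004, 9.98 and 6.78 CPM at 180 min, 2 groups that overlapped each other and those at 45 min. The log2 fold changes against macrophages alone were 0.65 (SE 0.17), 1.16 (SE 0.18) and 1.09 (SE 0.18), and the difference between 90 and 180 min was -0.07 (SE 0.17). The differences of 0.51 (SE 0.17) between 45 and 90 min and 0.44 (SE 0.17) between 45 and 180 min stopped passing when any of several single libraries was left out, the former without library 2 or 3 at 45 min or library 1, 3 or 4 at 90 min, the latter without library 2 or 3 at 45 or 180 min. The latter also did not pass with no filter on low counts (0.43) or with the length and GC dependence taken out (0.39). The libraries at 45, 90 and 180 min held 92 to 265 counts of Id1.

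Id3 (ENSMUSG00000007872) measured 3.10, 2.86, 1.62 and 2.31 CPM alone, 4.45, 4.19, 3.22 and 4.29 CPM at 45 min, 3.50, 4.60, 3.32 and 4.12 CPM at 90 min, and 3.07, 2.85, 2.85 and 2.99 CPM at 180 min. All libraries at 45 and 90 min were above all those alone, and all at 180 min were below those of both times. The log2 fold change was 0.71 (SE 0.22) at 45 min, 0.65 (SE 0.23) at 90 min and 0.25 (SE 0.23) at 180 min. The fall from 45 to 180 min, -0.46 (SE 0.22), and that from 90 to 180 min, -0.41 (SE 0.23), did not pass the threshold. With 31 to 177 counts per library the early calls were fragile: the value at 45 min went as low as 0.56 and did not pass without library 3 or 4 alone or library 1 or 4 at 45 min, and at 90 min it went as low as 0.49 and did not pass without library 3 or 4 alone or library 2 or 4 at 90 min. The 90 min value also did not pass with no filter on low counts (0.65) or with only these 2 groups in the fit (0.66).

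Genes were called at an adjusted p under 0.05 (edgeR's quasi-likelihood test, Benjamini-Hochberg over the 14168 genes), and the counts of the 9 are set beside the share of all tested genes, from which nothing is read because these genes were chosen on these values. At 45 min 4 of the 9 were called higher (Smad7, Id1, Id2 and Id3) and 0 lower, where 4.69% of all genes were higher and 6.11% lower. At 90 min 8 were called higher (all but Ski), against 11.1% of all genes higher and 9.97% lower. At 180 min 8 were called higher (all but Id3), against 15.1% higher and 16% lower. Counted by libraries that did not overlap, 4, 8 and 8 of the 9 lay wholly above macrophages alone at 45, 90 and 180 min, where 8.17%, 11% and 13.8% of all genes did. At 90 min the 8 included Ski, which was not called, and left out Skil, which was. The median log2 fold change of the 9 was 0.18, 0.65 and 1.09 at the 3 times, and over all genes it was 0.00, 0.00 and 0.01. These 3 comparisons share the libraries of macrophages alone.

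Between times, 7 of the 9 were called higher at 90 than at 45 min (all but Ski and Id3), where 14.8% of all genes were higher and 13.3% lower. From 90 to 180 min 6 were called higher (Smad3, Smad6, Smad7, Pmepa1, Ski and Id2), where 4.45% of all genes were higher and 6.97% lower. From 45 to 180 min 8 were called higher (all but Id3), where 18.3% of all genes were higher and 18% lower. The calls of Skil from 45 to 90 and from 45 to 180 min ended when the length and GC dependence was taken out (0.0033 and 0.067). The step from 90 to 180 min was largest for Smad6 at 1.11 (SE 0.21) on the log2 scale and Pmepa1 at 1.04 (SE 0.12), followed by Smad7 at 0.87 (SE 0.10), Smad3 at 0.63 (SE 0.062), Ski at 0.49 (SE 0.043) and Id2 at 0.28 (SE 0.044).

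**Figure D3:**
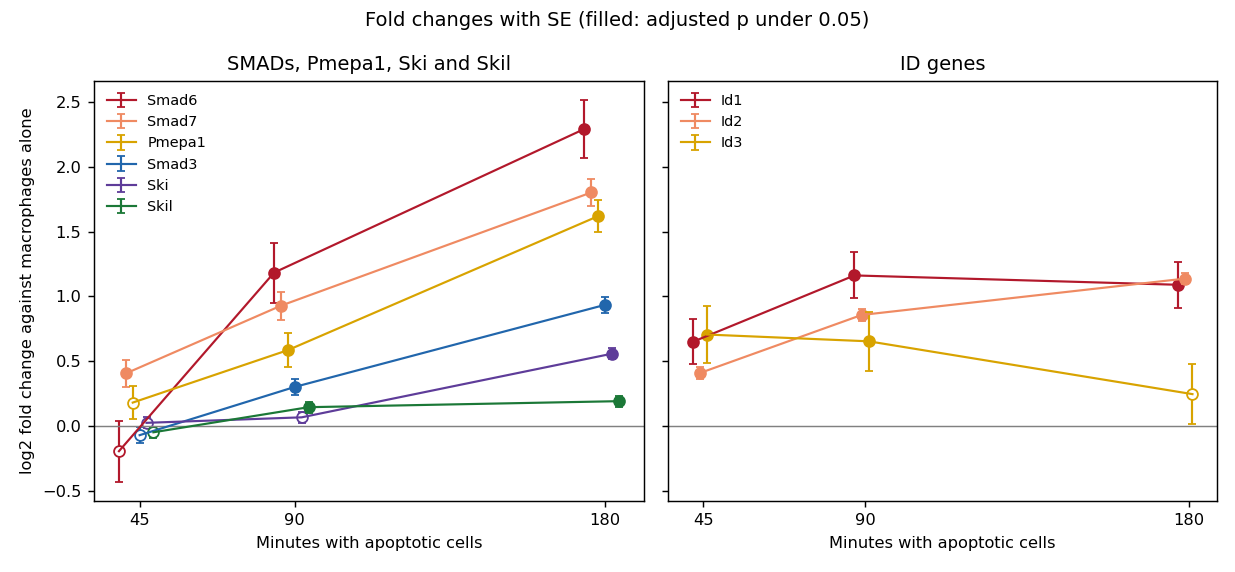
Log2 fold change against macrophages alone at 45, 90 and 180 min with SE, for the SMAD, Pmepa1, Ski and Skil genes (left) and the ID genes (right), filled where the adjusted p was under 0.05; points at a time are set side by side. Smad6 runs from -0.20 to 2.29, Smad7 is called at all 3 times, and Id3 is called at 45 and 90 min and not at 180 min.

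The genes whose profile was most like each of the 9 were sought among genes with a mean log2 CPM of at least 1. Likeness was the smallest root mean square difference of log2 CPM, each centred on macrophages alone, over the 16 libraries. A course shared with the matched gene therefore follows from the choice. Closest to Smad6 was Spsb1, a substrate receptor of a ubiquitin ligase, at a distance of 0.39, with log2 differences of 0.05, 1.19 and 2.57 beside those of -0.15, 1.16 and 2.28 for Smad6 on the same scale. Mir17hg, the host transcript of a microRNA cluster, and Cish, an inhibitor of cytokine signalling, came next at 0.41 each. Closest to Smad7 were AI504432 (0.21), the potassium channel gene Kcna3 (0.22) and Zc3h12a (0.23), which encodes an RNase that degrades inflammatory transcripts.

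Pmepa1 was closest to the kinase gene Sgk1 (0.21), then to Ppard, a nuclear receptor, and Wee1, a kinase that delays mitosis (0.26 each), and all 3 were near 0 at 45 min (0.00, 0.05 and 0.02). Smad3 was closest to Clec4e (0.11), a receptor that senses dead cells, Sema4b (0.11) and Fhod1 (0.11). Ski was closest to Lhfpl2 (0.07), the elongation-associated gene Eaf1 (0.08) and the protease gene Furin (0.08).

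Id2 was closest to the metallothionein gene Mt1 (0.10), the transcriptional repressor gene Bhlhe40 (0.12) and the prostaglandin E2 receptor gene Ptger4 (0.13). Id1 was also closest to Ptger4 (0.28), then to Mir22hg and Myc (0.29 each). Id3 was closest to the inflammasome gene Nlrp3 and to Phlda1 (0.26 each) and to Hyal1 (0.29), and all 3 were lower at 180 than at 90 min in mean (0.12 against 0.55 for Nlrp3, 0.32 against 0.69 for Phlda1 and 0.31 against 0.55 for Hyal1). Skil moved by less than 0.5 at every time and was not matched.

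**Figure D4:**
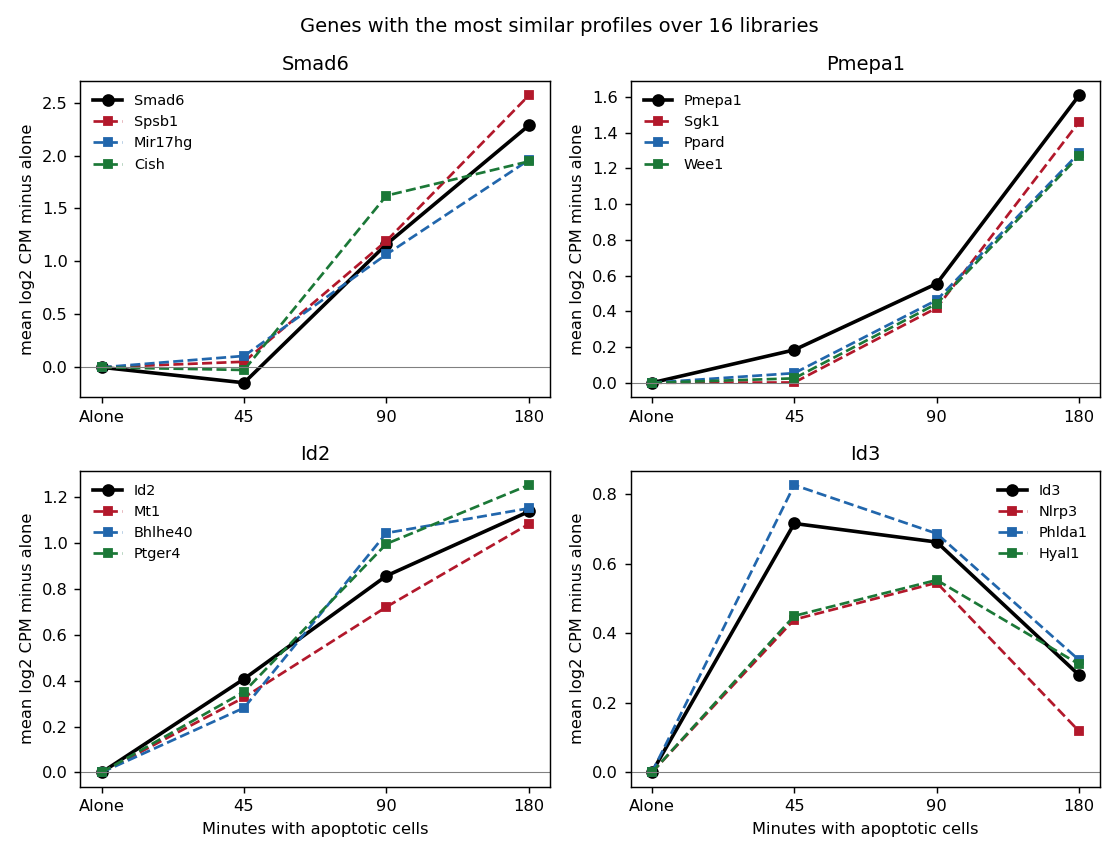
Mean log2 CPM minus that of macrophages alone for Smad6, Pmepa1, Id2 and Id3 (black) and the 3 genes with the most similar profile over 16 libraries (dashed), against minutes with apoptotic cells. Smad6 and Spsb1 reach 2.28 and 2.57 at 180 min, and Id3 and its 3 neighbours peak at 45 or 90 min.

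The rest of the pathway was described by lists of 144 other genes, of which 143 were in the table and 82 were tested, and 50 of these passed the test of any change over the 3 times, where 44.6% of all tested genes did. Against macrophages alone 9, 15 and 19 of the 82 were called higher and 11, 15 and 20 lower at 45, 90 and 180 min, and their median log2 fold change was -0.01, -0.05 and -0.03. Of all tested genes 4.69%, 11.1% and 15.1% were called higher and 6.11%, 9.97% and 16% lower at these times. No list was tested against other genes, and Bambi stands in 2 lists. Values that follow are log2 fold changes against macrophages alone, and their adjusted p-values are from edgeR's quasi-likelihood test.

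Most genes for ligands were too scarce to test: 8 of 19 TGF-beta and activin ligands and activators and 2 of 16 BMP and GDF ligands passed the filter. Tgfb1, which encodes TGF-beta 1, was not scarce, at 200 ± 9.59 CPM alone and 189 ± 9.66 at 180 min (SD, n = 4 each). It was not called against macrophages alone at any time. From 45 to 90 min it was called lower (-0.18, SE 0.049, adjusted p = 0.0042), as it was from 45 to 180 min (-0.17, SE 0.049, adjusted p = 0.0056). These calls were not checked under the alternatives. Inhba, which encodes the activin A subunit, rose and fell back, with 116 ± 13.8 CPM alone, 134 ± 10.3 at 45 min, 224 ± 18.9 at 90 min and 133 ± 11.03 at 180 min (SD, n = 4 each), a change of 0.96 at 90 min (SE 0.062, adjusted p = 3.0e-19). Its smaller differences at 45 min (0.21) and 180 min (0.20) did not pass by DESeq2, and the former also not without library 1 or 4 alone or library 3 at 45 min. Furin, the protease that cuts TGF-beta precursors, rose by 0.18 (SE 0.047, adjusted p = 0.0042) at 90 min and 0.52 (SE 0.047, adjusted p = 3.7e-14) at 180 min. Nrros, which anchors latent TGF-beta on myeloid cells, was called lower at 180 min (-0.34, SE 0.052, adjusted p = 2.0e-07), and so was Itgav, an integrin that activates it (-0.19, SE 0.046, adjusted p = 0.0011). Bmp10, at 2.40 ± 0.432 CPM alone and 1.005 ± 0.418 at 180 min, fell by 1.23 (SE 0.34, adjusted p = 0.0029). Thbs1, an activator of latent TGF-beta and the most abundant of its list per kb, measured 1683 ± 27.0 CPM alone and 1659 ± 45.0 at 180 min (any change, adjusted p = 0.19).

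Among 12 tested receptors and co-receptors, 2 were called higher and 3 lower at 180 min, where 15.1% of all genes were higher and 16% lower. The type I TGF-beta receptor gene Tgfbr1 rose by 0.27 (SE 0.053, adjusted p = 3.9e-05). The activin receptor gene Acvr1b fell by 0.43 at 90 min and by 0.60 at 180 min (SE 0.067, adjusted p = 4.7e-11), and the BMP receptor gene Bmpr2 fell by 0.44 at 180 min (SE 0.055, adjusted p = 1.4e-09). Of 3 tested antagonists only the decoy receptor gene Bambi was called, 0.90 higher at 180 min (SE 0.23, adjusted p = 0.0014), and it is also the only tested gene of 10 on the list of other BMP targets. The decoy thus stood higher beside Smad6 and Smad7 at 180 min, at 4.80 ± 0.426 CPM against 2.58 ± 0.337 alone (SD, n = 4 each).

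Of the 4 tested SMADs outside the 9, only Smad5 was called at a time. Smad4, the common partner, measured 85.4 ± 3.05 CPM alone and 78.2 ± 4.11 at 180 min (any change, adjusted p = 0.050, just above the threshold), Smad2 measured 72.6 ± 1.78 and 72.6 ± 4.65 (adjusted p = 0.85), and Smad1 measured 4.19 ± 0.275 and 4.90 ± 1.34 (adjusted p = 0.62; SD, n = 4 each). Smad4 crossed the threshold in some alternatives, with an adjusted p between 0.00064 and 0.21. Smad5, a BMP SMAD, was called 0.22 higher at 180 min (SE 0.087, adjusted p = 0.042), a call lost without the filter on low counts (adjusted p = 0.052), with the length and GC dependence taken out (0.055), and without any of 6 single libraries.

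Of 19 tested genes for turnover of SMADs and receptors 1 was called higher, 6 lower and 12 not called at 180 min (all genes: 15.1% higher, 16% lower). Nedd4l, a ubiquitin ligase that acts on SMAD2 and SMAD3, rose by 0.43 at 90 min and 0.46 at 180 min (SE 0.057, adjusted p = 1.2e-09). The SMAD phosphatase gene Ctdsp2 fell by 0.28 (SE 0.070, adjusted p = 0.0014) and the deubiquitinase gene Usp4 by 0.18 (SE 0.048, adjusted p = 0.0020) at 180 min. Among 15 nuclear cofactors 3 were called higher, 5 lower and 7 not called at 180 min, beside the same 15.1% and 16% of all genes. The acetyltransferase genes Ep300 and Crebbp, coactivators of SMADs, fell by 0.57 (SE 0.046, adjusted p = 4.5e-16) and by 0.30 (SE 0.046, adjusted p = 1.7e-07). Tgif1, a corepressor like Ski, rose by 0.44 (SE 0.044, adjusted p = 1.2e-12), and Tob2, an antiproliferative cofactor, by 0.64 (SE 0.064, adjusted p = 1.6e-12).

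Of 12 tested other genes that are commonly reported as TGF-beta targets, 4 were called higher and 1 lower at 45 min (all genes: 4.69% and 6.11%), 6 and 2 at 90 min (all genes: 11.1% and 9.97%), and 7 and 1 at 180 min (all genes: 15.1% and 16%). Their median at 180 min was 0.32, beside 0.01 over all genes. Tgfbi, a matrix protein gene, rose at each time, by 0.19, 0.29 and 0.56 (SE 0.042, adjusted p = 1.7e-17 at 180 min), with 0.12 at 45 min once the length and GC dependence was taken out. Bhlhe40 rose by 0.28, 1.04 and 1.15 (SE 0.053, adjusted p = 2.9e-26 at 180 min), and Spsb1 by 1.21 at 90 min and 2.59 at 180 min (SE 0.15, adjusted p = 1.7e-21).

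Of 7 tested basic helix-loop-helix genes, partners and relatives of partners of the ID proteins, 2 were called higher, 2 lower and 3 not called at 180 min (all genes: 15.1% higher, 16% lower). Bhlhe41, a repressor related to Bhlhe40, rose by 0.17, 0.57 and 0.89 (SE 0.055, adjusted p = 5.5e-21 at 180 min), with the 45 min call lost without library 1 or 3 alone or library 3 at 45 min, and Tal1, a haematopoietic factor, rose by 0.76 at 180 min (SE 0.19, adjusted p = 0.00091). Of the E protein genes, whose products ID proteins bind, Tcf4 fell by 0.25 at 180 min (SE 0.051, adjusted p = 6.0e-05) while the Id2 level was 2.20-fold that of macrophages alone, and Tcf3 was called lower at 90 min only (-0.25, SE 0.087, adjusted p = 0.033). The Tcf4 call ended when the length and GC dependence was taken out (-0.10). The Tcf3 call ended with upper-quartile scaling (-0.22) and without any of 3 single libraries. Tcf12, also an E protein gene, was called lower at 45 min (-0.14, SE 0.049, adjusted p = 0.049) and 180 min (-0.17, SE 0.050, adjusted p = 0.0051). Its calls were not checked under the alternatives.

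**Figure D5:**
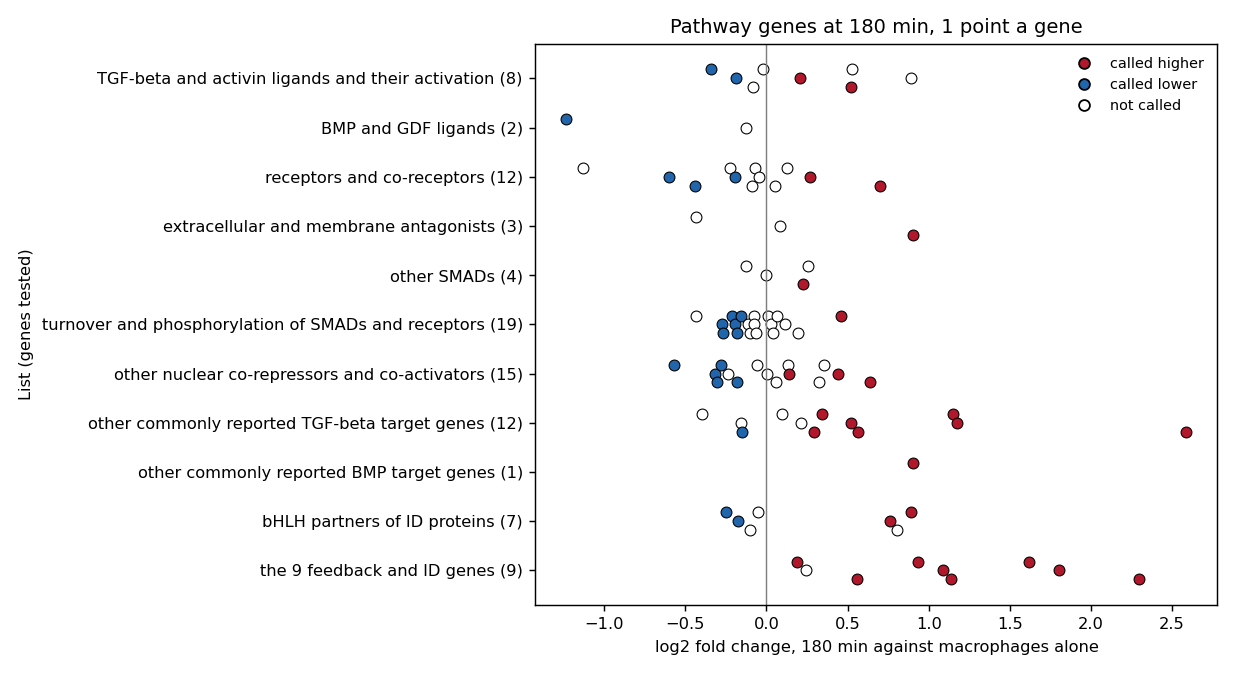
Log2 fold change at 180 min against macrophages alone for each tested gene of the pathway lists and for the 9 feedback and ID genes, 1 point a gene, red where called higher, blue where called lower and white where not called; numbers in brackets are genes tested. The 9 genes lie at 0.19 or above, and the list of turnover genes has 6 genes called lower, 1 higher and 12 not called.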

How the data were processed

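Per the labels' protocols, column-purified total RNA was freed of ribosomal RNA before libraries were built with a kit that marks strand. The authors' deposited table holds raw, unscaled counts for every gene in 16 libraries. STAR 2.7.9a, SAMtools, HTSeq and the build mm39 are named, per the submitters' processing notes. How strand, shared reads and human reads were handled is not given in the sources used here. Column names give each library's group and no replicate number, so numbers 1 to 4 are names in file order. Libraries of a group differed beyond sampling noise (chi-square per degree of freedom at least 3.84), so each was counted once.

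Genes were kept by edgeR's filter (minimum count 10, minimum total 15), which left 14168, and scaled by trimmed mean of M values. All 16 libraries entered 1 quasi-likelihood fit of edgeR 4.0.16 (R 4.3.3) on group alone, p-values were adjusted by Benjamini-Hochberg over all genes, and genes were called under 0.05. Each SE is the coefficient's size over the square root of F. CPM used the scaled library sizes, and log2 CPM a prior count of 2. Exon lengths and GC content came from GENCODE M21, of the build before mm39, so no coordinates come from it. Alternatives were DESeq2 1.42.0, 2 other scalings, no filter, only the groups compared, thinned counts, each library left out, and a length and GC dependence taken out. Thinned counts were compared by the number of called genes only.

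The 9 genes, the pathway lists and the markers were chosen with earlier results of these data known. Named genes were the 9, up to 4 of each list with the smallest p for any change, the most abundant of a list per kb, and the 3 genes most like each of the 9, passing over names of the Gm, Rik, AC and AL kinds. Tcf12 was named besides, as an E protein gene of its list, and Tgfb1 as the gene for TGF-beta 1. Of the lists, 1 entry (Hjv) matched no gene. A gene that the rule would name is not reported here.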

Additional observations from a re-analysis of the deposited data

Results flagged for a closer look

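In 36 groups of 4 libraries (9 genes in 4 groups), 2 held a library whose gap to the nearest of the others, as a share of the group's whole range, passed Dixon's critical value for 4 values, and chance gives about 1 such group in 20. Library 3 of macrophages alone had 2.79 CPM of Smad6, where the other 3 lay between 1.51 and 1.66 CPM, a gap of 0.884 of the range. Library 4 at 180 min had 556 CPM of Skil, where the other 3 lay between 527 and 527.6 CPM, a gap of 0.977 of the range.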

How the results depend on the processing

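The counts of called genes stayed within 1.5 times the main count in all 6 comparisons and the test of any change under every alternative run (1079 to 2124 against 1529 at 45 min, 2369 to 3534 against 2986 at 90 min, 3781 to 4829 against 4404 at 180 min). Taking out a smooth dependence on exon length and GC, an alternative chosen after seeing the data and fitted with 14080 of 14168 genes, moved the share of calls that were higher from 43.4% to 68.8% at 45 min, 52.7% to 38.9% at 90 min, 48.6% to 37.1% at 180 min, 52.6% to 31.6% from 45 to 90 min and 50.4% to 33.1% from 45 to 180 min. With it, Skil at 45 min turned to 0.139 and passed the threshold, Ski turned to -0.070, and the Skil differences from 45 to 90 min (0.0033) and 180 min (0.067) no longer passed. For the 54 values of the 9 genes, settings other than thinning or leaving out a library kept direction and side in 315 cases. They lost a call in 7 cases and reversed 2. Thinned counts were compared by the number of called genes only, so the 9 genes were not checked at equal depth. Leaving out 1 library kept 838, lost 21 and reversed 5. Those reversed values were all near 0: Smad6 at 45 min ran from -0.29 to 0.084, Ski from 45 to 90 min from -0.00010 to 0.039, and Id1 from 90 to 180 min from -0.20 to 0.030. The cause was not tested. The fold changes of Smad6, Id1 and Id3 rest on fewer than 300 counts per library and are limited by depth. No paired analysis was possible because the table's columns carry no replicate number to match to the labels.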
